A study of Mus musculus with 9 samples.

Results

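The FOS and JUN family is the set of 7 mouse genes Fos, Fosb, Fosl1, Fosl2, Jun, Junb and Jund, which encode the subunits of the transcription factor AP-1. The members were found by gene symbol in the platform annotation. Each had exactly 1 transcript cluster (the probes that the array assigns to a gene locus), and together they are 7 of the 19938 genes with a cluster of their own. All 7 were bright enough to be tested. They were among 10728 genes whose mean log2 intensity exceeded the brightness cutoff in 1 group or more. The cutoff was a linear intensity of 61.3, the median over the clusters that carry exactly 1 gene symbol. RNA was measured on 9 arrays, each of splenic conventional dendritic cells (cDC) of 129SvEv/Tac mice, isolated by sorting. The groups were resting wild-type (WT) cDC1, with 1 array, and activated Batf-/- Batf3-/- (DKO) cDC2, activated WT cDC2, resting DKO cDC2 and resting WT cDC2, with 2 arrays each. Activated cells had 1 h of IFN-gamma at 100 ng/ml before E. coli LPS at 1 µg/ml was added for 3 h more, and resting cells had neither agent. Whether both arrays of a group stem from different mice is not stated, so p-values rest on a spread between samples that may be technical only. The sort gates, and whether resting cells were cultured for the same time, are not given in the sources used here.

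AP-1 is a dimer held together by leucine zippers. JUN proteins can pair with each other, whereas FOS proteins need a JUN partner. The pairs bind TGACTCA, read on either strand, or the cyclic AMP response element TGACGTCA. LPS acts through TLR4 on the MAP kinases ERK, JNK and p38, which drive transcription of FOS and JUN genes within minutes and phosphorylate their products, and many of these transcripts decay again within hours. BATF and BATF3, the factors deleted here, are smaller relatives of FOS that also pair with JUN proteins, and a BATF:JUN pair joins IRF4 or IRF8 on composite DNA elements. The design addresses how RNA of these genes differed without BATF and BATF3, after activation, and between cDC1 and cDC2.

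Levels are given as log2 intensity throughout. Batf read 5.44 and 5.31 in activated DKO cDC2 and 5.40 and 5.44 in resting DKO cDC2, against 7.26 and 9.07 in activated WT cDC2 and 6.74 and 7.37 in resting WT cDC2. Batf3 lay between 6.43 and 7.17 in the 4 DKO arrays and between 7.58 and 9.92 in the 4 WT cDC2 arrays. Both deleted genes were thus lower in every DKO array than in every WT cDC2 array. Xcr1, a chemokine receptor that defines cDC1, read 9.33 in the cDC1 array and 4.42 to 4.73 in the cDC2 arrays, whereas Irf4, a factor needed by cDC2, read 5.13 in the cDC1 array and 9.37 to 11.02 in the cDC2 arrays. Not every marker set the subsets apart. The cDC2 marker Cd300a read 8.47 in the cDC1 array and 6.99 to 9.54 in cDC2. The cDC1 marker Tlr3 read 6.355 in the cDC1 array and 5.46 to 7.035 in cDC2. Irf8, another cDC1 marker, read 9.94 in the cDC1 array, below every activated cDC2 array. The cDC2 markers Clec4a4, Cd209a, Clec10a and Itgam did not reach the brightness rule in any group. The cDC2 arrays whose titles carry replicate number 1 stood apart from those with number 2 in a list of heat shock genes and in Bst2, among others, as described with Fosl1 below.

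The family had a bright and a dim set of clusters. Jun, Junb, Fosl2 and Fosb lay between percentiles 77.1 and 97.4 of all clusters on every array, whereas Fos, Jund and Fosl1 lay between percentiles 52.6 and 73.2. A cluster's intensity depends on its probes as well as on RNA, so levels are compared between groups for 1 gene at a time and not between genes. Over all 9 arrays Jun covered the widest range of the 7 members, 2.81 in log2 units, of which the 8 cDC2 arrays covered 0.73. Fosl2 followed with 1.66 and Jund covered the narrowest range, 0.59. The plot of the members by array shows that the wide range of Jun came from the single cDC1 array, whereas Fosl2 varied with activation as well.

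**Figure D1:**
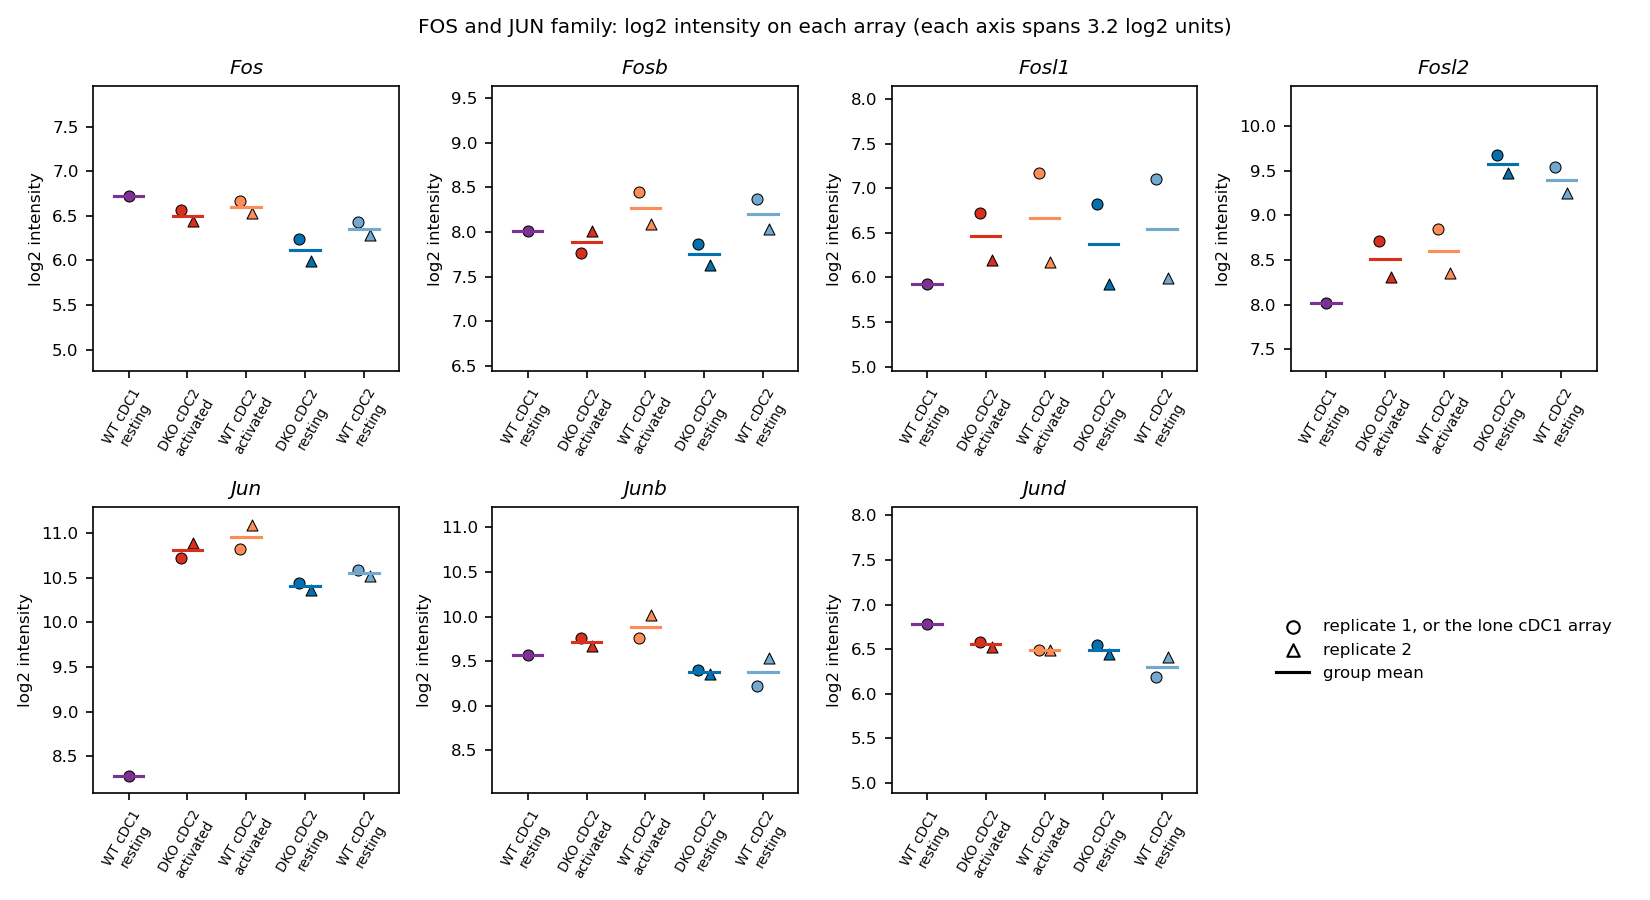
Log2 intensity (vertical axis) of each FOS and JUN gene on each of the 9 arrays, by group (horizontal axis); each point is 1 array, with circles for replicate 1 or the lone cDC1 array and triangles for replicate 2, and lines are group means. Jun reads 8.28 in the cDC1 array and 10.37 to 11.10 in cDC2, and Fosl2 is lower in activated than in resting cDC2 of both genotypes.

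The promoters of the 4 members that changed on activation (below) are printed to show which textbook regulatory motifs lie near their starts. Each runs from 250 bases before to 50 bases after the gene start that RefSeq gives on GRCm38.p6. Capitals mark matches to the motifs named below them, read on either strand.
Fosl2 (chr5:32136222-32136521, plus strand): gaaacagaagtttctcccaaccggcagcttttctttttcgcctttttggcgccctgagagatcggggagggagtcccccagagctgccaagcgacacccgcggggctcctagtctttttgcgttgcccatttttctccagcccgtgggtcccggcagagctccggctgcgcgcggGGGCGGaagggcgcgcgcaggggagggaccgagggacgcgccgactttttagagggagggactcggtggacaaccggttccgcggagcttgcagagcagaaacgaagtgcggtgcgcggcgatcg
Jun (chr4:95052173-95052472, minus strand): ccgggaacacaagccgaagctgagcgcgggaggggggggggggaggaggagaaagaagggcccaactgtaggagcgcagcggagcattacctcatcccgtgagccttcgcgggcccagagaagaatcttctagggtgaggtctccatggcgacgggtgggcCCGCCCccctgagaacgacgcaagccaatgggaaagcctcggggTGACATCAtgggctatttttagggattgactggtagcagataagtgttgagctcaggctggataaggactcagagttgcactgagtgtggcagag
Junb (chr8:84978699-84978998, minus strand): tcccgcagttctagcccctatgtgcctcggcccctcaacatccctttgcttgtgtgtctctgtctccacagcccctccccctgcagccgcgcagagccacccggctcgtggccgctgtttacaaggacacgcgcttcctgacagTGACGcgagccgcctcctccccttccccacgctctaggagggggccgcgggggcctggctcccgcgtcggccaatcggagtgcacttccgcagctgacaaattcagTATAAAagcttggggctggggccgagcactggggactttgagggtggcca
Fos (chr12:85473640-85473939, plus strand): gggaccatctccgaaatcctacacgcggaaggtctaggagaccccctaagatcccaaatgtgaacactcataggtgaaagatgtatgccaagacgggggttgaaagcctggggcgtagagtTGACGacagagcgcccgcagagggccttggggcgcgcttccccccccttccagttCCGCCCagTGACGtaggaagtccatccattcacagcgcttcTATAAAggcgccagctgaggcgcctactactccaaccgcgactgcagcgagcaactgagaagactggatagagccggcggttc

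A promoter entry was matched for 6 of the 7 members, all but Fosl1. The motifs were chosen with these sequences known, and a match is a description of letters, not of binding. The Jun promoter holds TGACATCA, the variant through which JUN and ATF2 proteins are known to act on Jun itself, starting 45 bases before the gene start, and 3.62% of 32851 promoters of the same length hold these letters. TGACG, which is also contained in TGACGTCA, occurs in the windows of Fos, Fosb and Junb and in 20.8% of all promoters. In Fos it starts 129 and 66 bases before the gene start, and in Junb 106 bases before it. TATAAA stands 33 bases before the start of Fos and at base 1 after the start that RefSeq gives Junb, and 13.6% of promoters hold it. The GC box GGGCGG, a site of SP1-type factors, occurs in Fos, Fosb, Fosl2 and Jun and in 35.7% of promoters. In the Fosl2 window it was the only one of these motifs, 75 bases before the gene start. The motifs TGACGTCA (in 1.79% of promoters), TGANTCA (7.81%), the STAT motif TTCNNNGAA (8.30%) and the CArG box bound by SRF (1.63%) occur in 0 of the 6 windows, which says only that these letters are not within them. Here N stands for any base, so TGANTCA is wider than the AP-1 site TGACTCA.

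Activation changed 4 of the 7 genes when the response was averaged over both genotypes. Fosl2, which encodes the FOS relative FRA-2, fell to 0.525-fold, while Jun, Junb and Fos rose to between 1.24-fold and 1.34-fold. Fosb, Fosl1 and Jund did not pass the test. Among all genes tested, 32.4% passed in the same comparison, with 1140 higher and 2332 lower, and 52.7% passed with the replicate number as a block, which kept the same 4 members, so the family's share of calls is to be read against a broad response. The median change was 0.13 in log2 units over the 7 members and -0.08 over all genes tested.

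Fosl2 read 8.71 and 8.31 in activated DKO cDC2, against 9.68 and 9.47 in resting DKO cDC2. In WT cDC2 it read 8.85 and 8.35 after activation, against 9.54 and 9.26 at rest. All 4 activated arrays were lower than all 4 resting arrays, as they were for 23.3% of all genes tested. The mean difference was -0.93 ± 0.16 in log2 units (SE, 4 activated and 4 resting arrays), or 0.525-fold with a 95% interval of 0.405 to 0.681 (limma, adjusted p = 0.00769). It was -1.07 ± 0.22 in DKO cells alone (limma, adjusted p = 0.0280) and -0.79 ± 0.22 in WT cells alone (limma, adjusted p = 0.0697). The fall in the mean of both genotypes passed when any 1 of the 8 cDC2 arrays was left out, with differences from -1.05 to -0.81. The call in DKO cells alone was lost when any 1 of their 4 arrays was left out (limma, adjusted p from 0.0688 to 0.124) and when only the arrays compared entered the fit (limma, adjusted p = 0.0548).

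Jun, the founding JUN protein and the main target of JNK, read 10.73 and 10.89 in activated DKO cDC2, against 10.44 and 10.37 in resting DKO cDC2. In WT cDC2 Jun read 10.82 and 11.10 after activation, against 10.59 and 10.52 at rest. The activated arrays were all above the resting arrays, as for 11.4% of all genes tested and for Junb and Fos, and those of replicate number 2 were the higher ones in both genotypes. The mean difference was 0.40 ± 0.09, or 1.32-fold with a 95% interval of 1.14 to 1.53 (limma, adjusted p = 0.0174). It lost the call without the second resting DKO array (0.38; limma, adjusted p = 0.0607) or the second activated DKO array (0.36; limma, adjusted p = 0.0525). Between arrays of replicate number 1 the difference was 0.26, and between those of number 2 it was 0.55.

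Junb encodes a JUN protein with a weaker activation domain than JUN that can oppose it on some promoters. It read 9.76 and 9.67 in activated DKO cDC2, against 9.40 and 9.35 in resting DKO cDC2. In WT cDC2 it read 9.76 and 10.02 after activation, against 9.23 and 9.53 at rest. Every activated array was above every resting array, by the least margin between the second activated DKO array and the second resting WT array. The mean difference was 0.42 ± 0.10, or 1.34-fold with a 95% interval of 1.13 to 1.59 (limma, adjusted p = 0.0225). The call was kept in 2 of the 8 fits that left out 1 array, those without the second resting WT array (0.50) or the first activated WT array (0.49). In the other fits the difference was 0.35 to 0.45 (limma, adjusted p from 0.0513 to 0.0733).

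Fos, the classical immediate early gene of the family, was dim in every group. It read 6.56 and 6.44 in activated DKO cDC2, against 6.24 and 5.99 in resting DKO cDC2. In WT cDC2 it read 6.66 and 6.53 after activation, against 6.43 and 6.28 at rest. The groups did not overlap, but the second activated DKO array and the first resting WT array nearly met. The mean difference was 0.31 ± 0.09, or 1.24-fold with a 95% interval of 1.07 to 1.44 (limma, adjusted p = 0.0404). The call was lost in 7 of the 8 fits that left out 1 array (limma, adjusted p up to 0.115), all but the one without the first resting DKO array, and when all genes were tested without the brightness rule (limma, adjusted p = 0.0503).

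The remaining members did not pass. Fosb, a FOS protein whose short splice form lacks the activation domain, differed by 0.10 ± 0.13 between activated and resting arrays, with a 95% interval of -0.22 to 0.42. Jund, the JUN protein with the steadiest expression in most tissues, differed by 0.13 ± 0.07, with an interval of -0.05 to 0.31. Fosl1, which encodes FRA-1, differed by 0.10 ± 0.36, with the widest interval of the 7, from -0.78 to 0.98. The cluster values do not separate splice forms.

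Within 1 genotype fewer members passed without a block for the replicate number. In WT cDC2, 0 of the 7 members passed the limma test, where 10.5% of all genes did, although 3 (Fosl2, Jun and Junb) had an unadjusted p below 0.05, as had 30.4% of all genes. Their adjusted p-values by limma were 0.0697, 0.0892 and 0.0704. In DKO cDC2, 1 member passed, Fosl2, where 13.7% of all genes did, and 3 had an unadjusted p below 0.05, as had 31.4% of all genes. The arrays of one replicate number deviated together, and with that number as a block the calls changed. Then 3 members passed in WT cDC2, Fosl2, Jun and Junb (limma, adjusted p = 0.00267, 0.0335 and 0.0209), where 35.3% of all genes did, and 3 passed in DKO cDC2, Fosl2, Jun and Fos (limma, adjusted p = 0.000820, 0.0313 and 0.0122), where 38.0% did. The test of the difference between the genotypes' responses found 0 members and 0% of all genes, with 121 genes and 0 members at an unadjusted p below 0.05 by limma. The DKO response minus the WT response ran from -0.27 for Fosl2 (95% interval -1.02 to 0.48) to 0.14 for Fos (-0.29 to 0.57), and was 0.00 for Jun (-0.42 to 0.43). For these 3 genes the interval reaches, in at least 1 direction, a difference between the genotypes as large as the mean response itself. The plot of member differences shows the comparisons within 1 genotype, state or subset with their intervals.

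**Figure D2:**
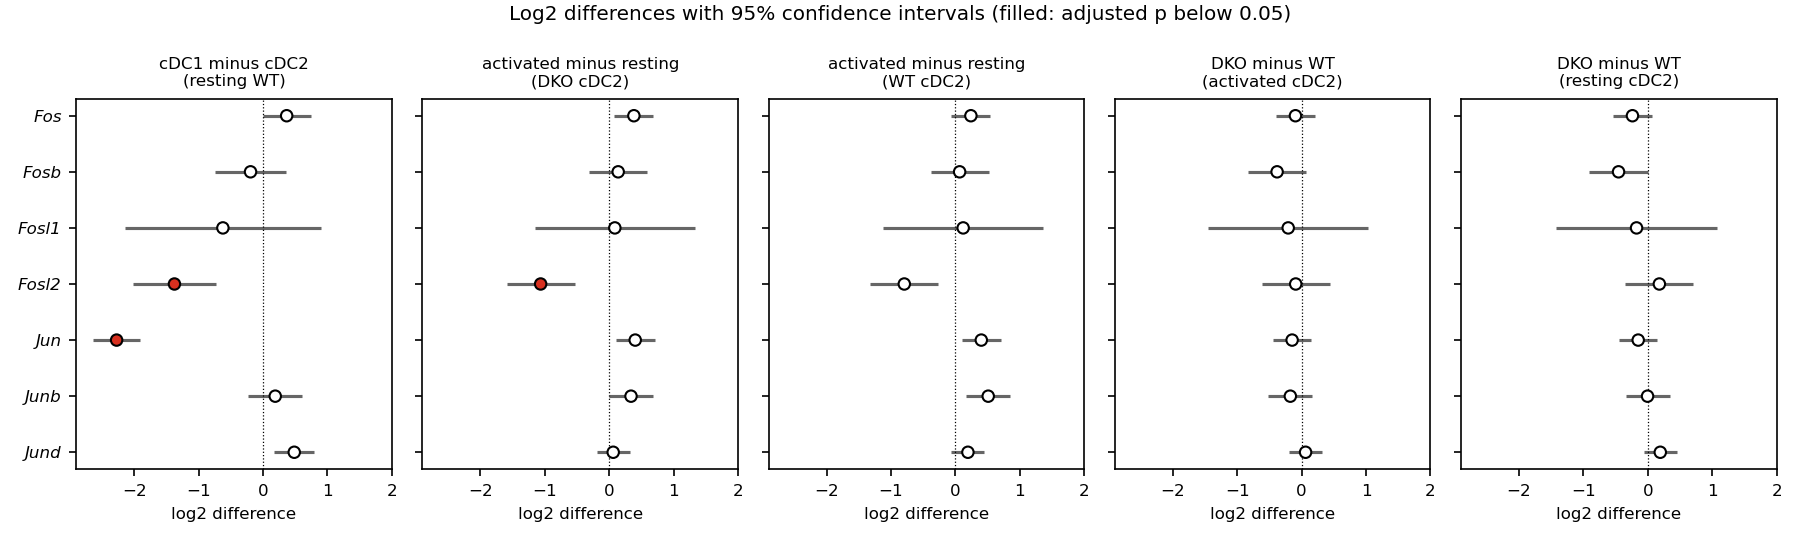
Log2 difference (horizontal axis) of each FOS and JUN gene in 5 comparisons between single groups; points are limma estimates, bars are 95% intervals, and filled points pass the adjusted threshold of 0.05. The filled points are Jun (-2.27) and Fosl2 (-1.38) in cDC1 minus cDC2 and Fosl2 (-1.07) in activated minus resting DKO cDC2.

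Some markers of other cell types also differed with activation. The macrophage list (7 of 7 genes found, 6 bright) summed to 716 to 914 intensity units in activated arrays and to 1036 to 1237 in resting arrays, but its mean log2 intensity overlapped, at 6.41 to 6.85 in activated and 6.41 to 6.90 in resting arrays. The gene Spic read 7.73 to 8.40 in activated and 8.48 to 9.56 in resting cDC2, whereas Mertk ran the other way, at 5.23 to 5.42 in activated and 4.49 to 4.901 in resting cDC2. The T cell list (5 of 6 found, 3 bright) summed to 262 to 303 in activated arrays and to 333 to 400 in resting arrays, and the cDC1 list (9 of 10 found, all bright) to 4205 to 6050 in activated arrays and to 1283 to 1851 in resting arrays. In the cDC1 list, Irf8 read 11.67 to 12.27 in activated and 7.64 to 8.46 in resting cDC2, whereas Xcr1 and Clec9a stayed at 4.73 or below in all 8. In bulk RNA, fewer cells of a type and less RNA per cell cannot be told apart, and the part of these markers in the members' changes was not tested.

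The genes around AP-1 were drawn from textbook lists, given here by their mean response over both genotypes. The counts for this and the following lists are to be read against all genes tested, of which 32.4% passed, with 1140 higher and 2332 lower. Of 17 dimer partners and relatives tested, 3 rose and 1 fell. Mafk and Batf2, small zipper proteins of the MAF and BATF groups, rose by 1.49 ± 0.12 (limma, adjusted p = 0.000956) and 1.42 ± 0.11 (limma, adjusted p = 0.000956). Jdp2, which pairs with JUN and represses AP-1 sites, rose by 0.64 ± 0.09 (limma, adjusted p = 0.00401), whereas Nfe2l2, which encodes the oxidative stress factor NRF2, changed by -0.23 ± 0.07 at the edge of the threshold (limma, adjusted p = 0.049998). The list's median was 0.09, against -0.08 over all genes.

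Upstream of AP-1, 5 of 20 MAP kinase genes rose and 3 fell. Map3k5, which encodes the stress kinase ASK1, rose by 1.498 ± 0.326 and Map3k8, which encodes the TLR-activated kinase TPL2 that leads to ERK, by 0.57 ± 0.12. Map3k1, a kinase upstream of JNK, fell by 0.90 ± 0.10, and Map2k2, which encodes MEK2, fell by 0.38 ± 0.08. Of the 10 MAP kinase phosphatase genes, 1 rose and 1 fell: Dusp2 rose by 1.13 ± 0.12 and Dusp4 fell by 0.46 ± 0.09. Among 13 factors known to act on the Fos and Jun promoters, 5 rose and 3 fell. The cyclic AMP-responsive factor Crem rose by 1.45 ± 0.17, and of the SRF partners Elk4 rose by 0.45 ± 0.08, Mrtfb fell by 0.66 ± 0.11 and Elk3 changed by -1.004 ± 0.111.

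Of 23 other immediate early genes, 4 rose and 2 fell. Csrnp1 rose by 1.599 ± 0.185, Klf6 by 1.18 ± 0.11 and Ppp1r15a, a phosphatase subunit of the stress response, by 0.91 ± 0.11, whereas Arc fell by 0.74 ± 0.08 and Trib1, counted in the turnover list as well, fell by 0.94 ± 0.18. Most of the fall of Arc was in DKO cells, at 6.37 and 6.185 after activation against 7.56 and 7.44 at rest. In WT cells Arc read 6.38 and 6.48 against 6.60 and 6.785. Its DKO response minus its WT response was -0.96 ± 0.17 and was not called. Among 9 genes for turnover or modification of JUN and FOS proteins, 1 rose and 4 fell. Cop1, a ubiquitin ligase for JUN, rose by 0.40 ± 0.06, the JUN ligase gene Itch fell by 0.51 ± 0.08, the deubiquitinase gene Usp28 fell by 0.54 ± 0.09 and Trib1, whose product brings substrates to COP1, fell as given above. Of 13 textbook AP-1 targets, 4 rose and 2 fell. Il6 rose by 4.07 ± 0.11 and Ptgs2, which encodes cyclooxygenase 2, by 2.22 ± 0.43. The metalloproteinase inhibitor gene Timp1 rose by 0.91 ± 0.17 and the collagenase gene Mmp13 by 0.47 ± 0.09. Both met the brightness rule only in activated WT cDC2, so their place in this count rests on a group where they were high. In activated WT cDC2 Timp1 read 5.886 and 6.346, against 5.528 and 6.171 in activated DKO and 4.972 to 5.143 in resting cDC2. For Mmp13 the activated and resting arrays overlapped, with 5.828 and 5.732 in activated DKO and 5.859 and 5.682 in resting WT cDC2. The list medians were 0.03 for the MAP kinases, 0.04 for the phosphatases, -0.15 for the promoter factors, 0.08 for the immediate early genes, -0.25 for turnover and 0.23 for the targets, against -0.08 over all genes tested. With the replicate number as a block, 52.7% of all genes tested passed. The counts were then 6 higher and 5 lower for the dimer partners, 8 and 6 for the MAP kinases and 3 and 1 for the phosphatases. They were 5 and 5 for the promoter factors, 9 and 4 for the immediate early genes, 2 and 6 for turnover and 5 and 2 for the targets. The plot of members and listed genes sets these responses side by side.

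**Figure D3:**
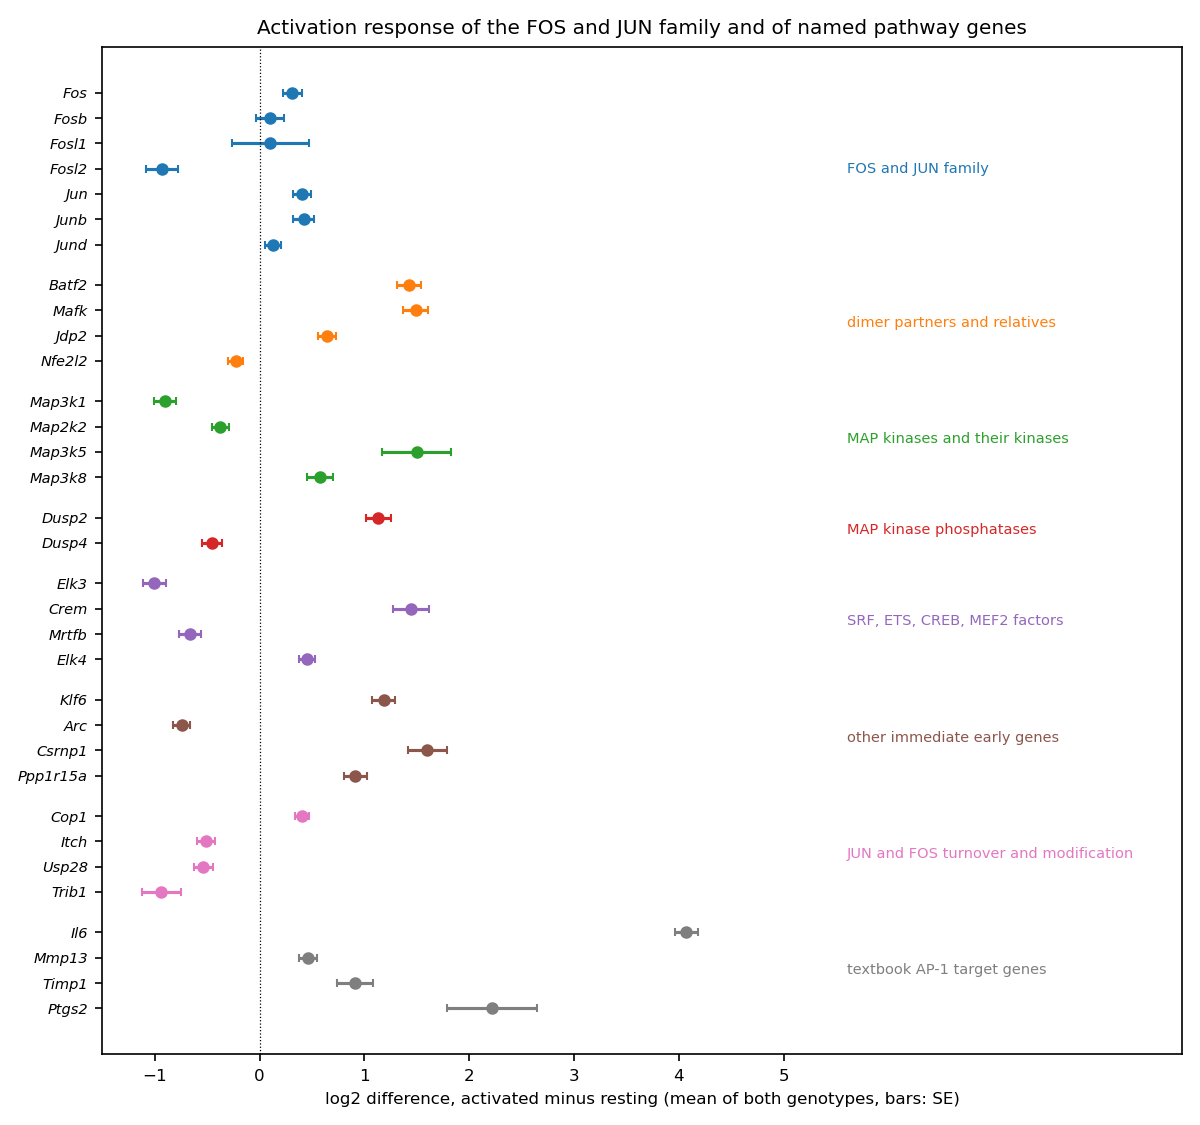
Log2 difference, activated minus resting cDC2 in the mean of both genotypes (horizontal axis), for each FOS and JUN gene and the up to 4 genes of smallest p past the threshold in each of 7 lists (vertical axis, coloured by list); bars are SE. Il6 (4.07) and Ptgs2 (2.22) lie far above the members, which lie between -0.93 and 0.42.

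The family held no call between DKO and WT cells. In resting cDC2, in activated cDC2 and in the mean of both states, 0 of the 7 members passed the limma test, and 0.0186% of all genes did in each. At an unadjusted p below 0.05 there was 1 member in resting cells (6.59% of all genes), 0 in activated cells (5.95%) and 1 in the mean of both states (10.8%), Fosb in both cases. With the replicate number as a block, 0 members passed as well, where 0.736% of all genes did in resting cells, 0.569% in activated cells and 5.58% in the mean of both states. The intervals bound what could be seen: in the mean of both states DKO minus WT lay between -0.36 and 0.06 for Jun, between -0.33 and 0.15 for Junb, between -0.05 and 0.31 for Jund, between -0.38 and 0.05 for Fos and between -0.33 and 0.42 for Fosl2. Fosl1 was bounded only by -1.07 and 0.69.

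Fosb came closest. It read 7.76 and 8.02 in activated DKO cDC2, against 8.45 and 8.09 in activated WT cDC2. At rest it read 7.87 and 7.63 in DKO cDC2, against 8.37 and 8.04 in WT cDC2. The 4 DKO arrays were all lower than the 4 WT arrays, and 2.57% of all genes tested had no overlap between these groups in one direction or the other. DKO minus WT was -0.42 ± 0.13 in the mean of both states, or 0.748-fold with a 95% interval of 0.5996 to 0.9341 (limma, unadjusted p = 0.0182, adjusted p = 0.311). It was -0.46 ± 0.19 at rest and -0.38 ± 0.19 after activation (limma, adjusted p = 0.756 and 0.891), and none of the alternatives run brought it past the threshold. With the replicate number as a block the adjusted p by limma was 0.0827 in the mean, 0.229 at rest and 0.335 after activation. Between activated arrays of replicate number 1 the difference was -0.69, and between those of number 2 it was -0.07. Some marker lists of other cells also averaged lower in DKO arrays. The macrophage list averaged 6.41 to 6.60 in DKO and 6.72 to 6.90 in WT arrays (mean log2 intensity), but its summed intensity overlapped, at 716 to 1237 in DKO and 863 to 1058 in WT arrays, and its gene Spic read 9.56 and 9.08 in resting DKO against 8.86 and 8.48 in resting WT cDC2. The monocyte list (5 of 6 found, 3 bright) averaged 5.69 to 6.13 in DKO and 6.07 to 6.47 in WT arrays, and the plasmacytoid list (6 of 7 found, 4 bright) 7.17 to 7.65 in DKO and 7.58 to 7.92 in WT arrays, so both of these overlapped. Their part in the Fosb values was not tested.

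The lists around AP-1 also held 0 genes past the threshold by limma in each genotype comparison without the block. The deleted Batf and Batf3 were thus not called either. In activated cDC2, DKO minus WT was -2.79 ± 0.54 for Batf and -2.47 ± 0.45 for Batf3 (limma, adjusted p = 0.457 and 0.451). A missing call between the genotypes therefore does not show that a gene did not differ. With the replicate number as a block, 5.58% of all genes passed in the mean of both states. Of the 17 dimer partners and relatives, 8 were then lower in DKO cells and 0 were higher: the deleted Batf and Batf3, and Atf3, Bach1, Bach2, Jdp2, Mafk and Nfe2l2. In the same fit 4 of the 13 textbook targets were lower (Cd44, Hmox1, Mmp13 and Plau) and 0 higher. Of these, Mmp13 met the brightness rule only in activated WT cDC2, at 6.501 and 6.476, against 5.439 to 5.859 on all other arrays. In that fit 0 of the 20 MAP kinase genes passed. Dusp16 of the 10 phosphatases, Srf of the 13 promoter factors and Cops5 of the 9 turnover genes were higher in DKO cells. Of the 23 other immediate early genes, Nr4a1 was lower. The median over the dimer partners was -0.31 in the mean of both states, against 0.01 over all genes, and that list contains Batf and Batf3 themselves. The textbook AP-1 targets had a median of -0.16, the other immediate early genes -0.11 and the MAP kinases 0.01. The median was -0.04 for the phosphatases, -0.07 for the promoter factors and -0.04 for the turnover genes.

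Jun set the cDC subsets apart. It read 8.28 in the resting WT cDC1 array, against 10.59 and 10.52 in resting WT cDC2. The cDC1 value also lay below all 6 other cDC2 arrays, the lowest of which read 10.37. The difference was -2.27 ± 0.15, or 0.207-fold with a 95% interval of 0.160 to 0.267 (limma, adjusted p = 0.000834), number 43 of 10728 genes by p. With a single cDC1 array, the fit assumes that it varies as the cDC2 arrays do, and the result has no replicate check on the cDC1 side. When only the 3 arrays compared entered the fit, 0 genes passed the threshold (limma, adjusted p = 0.207 for Jun).

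Fosl2 was the other member past the threshold between the subsets, so 2 of 7 members passed, both lower in cDC1, where 13.6% of all genes did. It read 8.02 in cDC1, against 9.54 and 9.26 in resting WT cDC2, and was lower there than even in activated cDC2. The difference was -1.38 ± 0.27, or 0.385-fold with a 95% interval of 0.246 to 0.604 (limma, adjusted p = 0.0230). Without the first resting WT cDC2 array it was -1.24 and missed the threshold (limma, adjusted p = 0.0810).

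The other members differed less between the subsets. Jund read 6.79 in cDC1, the highest of the 9 arrays, against 6.19 and 6.41 in resting WT cDC2, a difference of 0.48 ± 0.13 that missed the threshold (limma, adjusted p = 0.0575). Fos also had its highest reading in cDC1, 6.72 against 6.43 and 6.28 in resting WT cDC2, a difference of 0.37 ± 0.15 (limma, adjusted p = 0.171). Junb read 9.57 in cDC1 against 9.23 and 9.53 in resting WT cDC2, and Fosb 8.01 against 8.37 and 8.04. Their 95% intervals ran from -0.23 to 0.61 and from -0.75 to 0.36. Fosl1 read 5.92 in cDC1 and 7.10 and 5.997 in resting WT cDC2, a spread between replicates that left its interval at -2.15 to 0.90.

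Around AP-1, 13 of 104 listed genes tested (12.5%) passed between the subsets, close to the share over all genes. Map3k1, upstream of JNK, was lower in cDC1 by limma (-1.59 ± 0.18, adjusted p = 0.00456), as was Rps6ka3, an ERK-activated kinase gene (-1.03 ± 0.15, adjusted p = 0.00999), and these were the only calls among 20 MAP kinase genes. Dusp10, a phosphatase gene for JNK and p38, was higher in cDC1 (1.48 ± 0.12, limma adjusted p = 0.00147) and Dusp4 lower (-0.77 ± 0.16, limma adjusted p = 0.0277). Among 23 immediate early genes, Arc was higher in cDC1 (1.25 ± 0.14, limma adjusted p = 0.00474) and Nr4a3, a nuclear receptor gene, lower (-1.79 ± 0.28, limma adjusted p = 0.0118). Of the dimer partners, Nfe2l2 was higher by 0.50 ± 0.12 and Atf2, a partner of JUN, lower, at -0.85 ± 0.20 (limma, adjusted p = 0.0445 and 0.0388). Of the 9 turnover genes, Men1, which encodes the JUND-binding protein menin, and Usp28 were lower, at -0.73 ± 0.16 and -0.66 ± 0.16 (limma, adjusted p = 0.0325 and 0.0453). Of the textbook targets, Mt1, a metallothionein gene, was higher by 0.69 ± 0.12, and Plau, which encodes urokinase, was among 2 that were lower, at -1.95 ± 0.44 (limma, adjusted p = 0.0145 and 0.0351).

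Fosl1 separated the cDC2 arrays by replicate number. On the arrays titled replicate 1 it read 6.73 in activated DKO, 7.17 in activated WT, 6.82 in resting DKO and 7.10 in resting WT cDC2. On those titled replicate 2 it read 6.19 in activated DKO, 6.17 in activated WT, 5.93 in resting DKO and 5.997 in resting WT cDC2. The array of number 1 was higher in each of the 4 groups, with no overlap between the numbers. The mean difference was 0.88 in log2 units, number 128 of all genes tested by size, and 8.88% of them had no overlap between the numbers. No other member separated the numbers, though Fosl2 and Fos were also higher on number 1 in each of the 4 groups, by 0.35 and 0.16 on average. By size these differences were only number 1705 and 4646 of all genes tested. The share of all genes with the same direction in each of the 4 groups was not counted. The heat shock list (7 of 8 genes found, all bright) summed to 8908 to 11370 intensity units on arrays of number 1 and to 14050 to 17790 on those of number 2. Bst2 of the plasmacytoid list separated the numbers as well, at 9.40 to 11.07 on number 1 and 11.44 to 12.36 on number 2. The labels do not say what the numbers mark, and the part of the heat shock difference in the Fosl1 values was not tested. The plot by replicate number shows the pairs of arrays of each group.

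**Figure D4:**
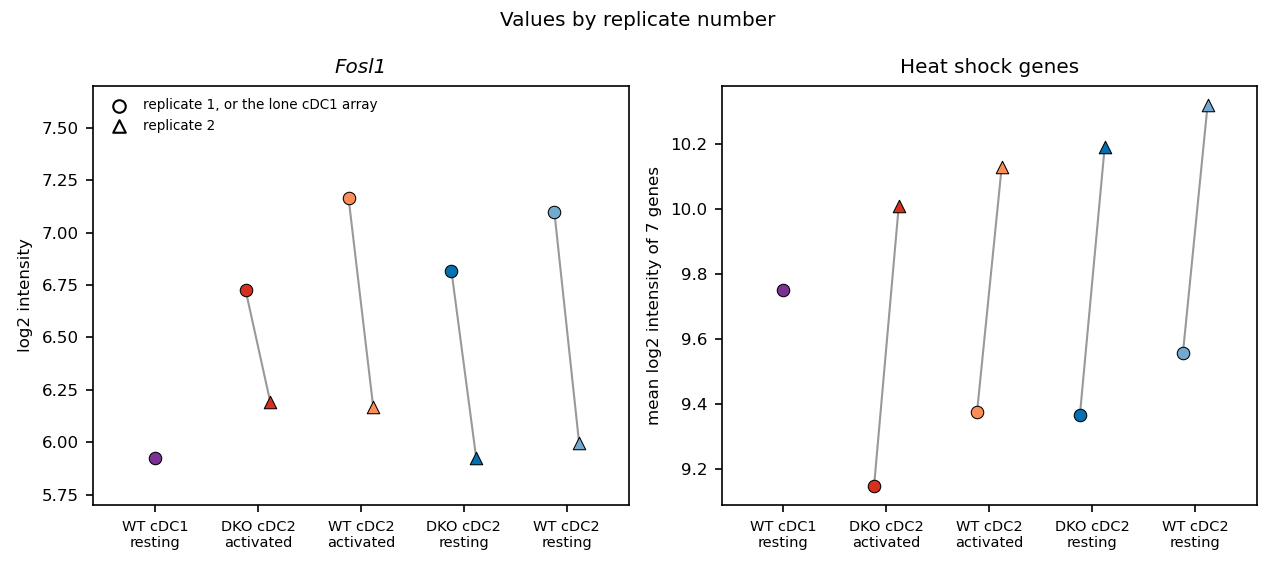
Log2 intensity of Fosl1 (left) and mean log2 intensity of the 7 heat shock genes (right) on each array, by group (horizontal axes); circles are replicate 1 or the lone cDC1 array, triangles are replicate 2, and each line joins the 2 arrays of 1 cDC2 group. Fosl1 reads 6.73 to 7.17 on the 4 arrays of number 1 and 5.93 to 6.19 on the 4 of number 2, and the heat shock mean is 9.15 to 9.56 on number 1 and 10.01 to 10.32 on number 2.

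Likeness between genes was described by Pearson's r of log2 values over the 9 arrays. These arrays share cells, activation and replicate number, so r says only that the profiles run alike. Nearest to Jun were Sptan1 (0.993), Zbtb32 (0.988) and Agk (0.988), and the low cDC1 value weighs most in Jun's profile. Nearest to Fosl2 were Mir340 (0.992), Zscan26 (0.988) and Prpf8 (0.980). Junb ran most like Prr5l (0.974), Sfmbt1 (0.962) and Ifi213 (0.962), and Fos like Entpd1 (0.968), Fes (0.956) and Pmepa1 (0.952). Fosb ran most like Fgfr1 (0.963), Cpeb2 (0.944) and Mcam (0.918), Jund like Ntng1 (0.962), Chmp2a (0.940) and Snrnp27 (0.939), and Fosl1 like Slc7a5 (0.968), Kif5b (0.968) and Hnrnpd (0.966). No member was among the 3 nearest genes of another.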

How the data were processed

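Biotin-labelled cDNA was made with the WT Pico kit, per the labels' protocols. The submitters' processing notes name Affymetrix Expression Console and RMA, with no version. The authors deposited 1 linear intensity for each transcript cluster on each array (array medians 53.4 to 55.6), so log2 was taken here before any test. Array values at equal rank differed by at most 0.309 in log2 units, so a difference in total RNA is not visible. Of 28853 clusters, 21789 carried 1 symbol and were used, the brightest cluster standing for a gene. Genes with a group mean above the median of the clusters with 1 symbol, in at least 1 group, were tested. The tests were two-sided, with the lmFit and eBayes functions of limma 3.58.1 (R 4.3.3). A single model of 5 group means over 9 arrays left 4 residual degrees of freedom. The threshold was 0.05 after Benjamini-Hochberg adjustment over 10728 genes, and the procedure was tested on simulated data. Alternatives covered the brightness rule, quantile normalization, median centring, an offset of 16, the variance prior, the arrays in the fit, the cluster of a gene, the replicate number and each array left out. Same-numbered arrays of different cDC2 groups deviated together (r = 0.454 to 0.695 over genes for all 6 pairs of groups), a pairing taken from the data and not from the labels. A fit with the number as a block is given where it changes calls. The number of arrays limits the precision. Promoter sequences came from RefSeq's GRCm38.p6 annotation. Named were all 7 members, the up to 4 listed genes of smallest p past the threshold in the mean activation response, up to 2 in other comparisons, and the 3 genes most like each member. The members and lists were chosen with earlier results of these data known. Listed genes without a cluster of their own were not used here.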

Additional observations from a re-analysis of the deposited data

How the results depend on the processing

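Of 401 values of single members under 7 other settings of the processing and under the replicate block, 391 kept their direction and side of the threshold, 6 gained a call, 4 lost one and 0 reversed. The labels do not say what the replicate numbers mark, and the blocked fit was set beside the results with its calls known. With the number as a replicate block, 3 members passed in activated against resting WT cDC2 and 3 in DKO cDC2, 4 still passed in the mean of both genotypes, and 0 passed in the genotype comparisons and the interaction. It changed no other call of a member. The block moved the count over all genes to 3791 from 1131 (WT), to 4080 from 1472 (DKO) and to 5656 from 3472 (mean) for activation, and from 2 to 79 at rest, 61 after activation and 599 in the mean for genotype. With an intensity trend in the variance prior, Jund also passed between cDC1 and cDC2 (0.48; limma, adjusted p = 0.0495). The cDC1 array carries no number, so its comparison had no blocked fit. With only the groups compared in the fit, 0 members passed in DKO activation and 0 between cDC1 and cDC2, and the counts over all genes were 5 (WT), 757 (DKO), 0 (cDC1, against 1464) and 0 for genotype in each state. Leaving out 1 array gave 1 to 3 members in the mean response, 0 in DKO activation, 0 in WT activation and 1 to 2 between the subsets, and over all genes 63 to 550 (WT), 217 to 617 (DKO), 2128 to 2812 (mean), 798 to 828 (cDC1) and 0 to 6 for genotype. The cause of these losses beyond fewer arrays was not tested. Leaving out 1 array turned the direction of values that were not called: for activation, Fosl1 at -0.36 to 0.53 in DKO, -0.43 to 0.67 in WT and -0.17 to 0.38 in the mean, and Fosb at -0.11 to 0.24 in WT. For genotype, these were Fosl1 at -0.73 to 0.37 at rest, -0.71 to 0.29 after activation and -0.47 to 0.0832 in the mean, Fosl2 at -0.34 to 0.16 after activation and -0.0806 to 0.167 in the mean, and Junb at -0.16 to 0.15 at rest.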
